A study of Mus musculus with 9 samples.

Results

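The collagen genes of mouse perigonadal white adipose tissue were described across 3 genotypes. They were chosen by name: every probe set whose only gene symbol in the probe annotation reads Col, a number, a and a number. The rule found 39 genes of the 14860 genes named on the array, each with a single probe set. The rule itself uses no measured value, but it was set with earlier results of these data known. No filter on low values was applied, so all 39 were tested. By structure the members fell into 11 fibrillar chains, 6 basement membrane chains of type IV, 4 chains of type VI, 3 short-chain network chains, 7 FACIT chains (fibril-associated collagens with interrupted triple helices), 4 transmembrane chains, 2 multiplexins, 1 anchoring fibril chain and 1 other chain. Of 45 textbook collagen genes looked for, 6 had no probe set of their own here.

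Collagens are trimers of chains that wind into a helix with glycine at regular intervals, and the chains are hydroxylated and folded in the endoplasmic reticulum, secreted, trimmed and cross-linked. Fibrillar types I, III and V give tissue its tensile strength, type IV forms the sheet of the basement membrane, and type VI forms beaded filaments between cells. In white fat each adipocyte is wrapped in a basement membrane with type IV and type VI collagen, and much of the fibrillar collagen is made by fibroblast-like progenitors.

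Each genotype was represented by 3 exon arrays summarised per gene, from mice 4 months old. In G609G/G609G mice both Lmna copies carry a change known to make progerin, a shortened lamin A, in every tissue that expresses the gene; the line is a model of premature ageing. LCS/LCS is known as the Lmna allele that makes lamin C without lamin A, which the labels do not spell out. The third genotype was wt. Sex, strain background and pooling are not stated in the labels. The series calls its replicates biological, without saying that each array came from its own mouse, so p-values reflect only how far these arrays scatter, which may be technical.

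Array medians were 5.94 to 6.01 for G609G/G609G, 6.31 to 6.37 for LCS/LCS and 6.36 to 6.45 for wt (deposited log2 signal). Because the G609G/G609G arrays were dimmer as a whole, each change was computed on the deposited values, after quantile normalization and after centring each array on its median. Centring added 0.425 to every change of G609G/G609G against wt and 0.052 to every change of LCS/LCS against wt. Of the adipocyte markers, Adipoq, the adipocyte hormone adiponectin, read 12.29 to 12.33 in G609G/G609G, 13.15 to 13.18 in LCS/LCS and 13.06 to 13.18 in wt. Lep, the adipocyte hormone leptin, read 5.16 to 5.45 in G609G/G609G, below the array medians, 12.31 to 12.40 in LCS/LCS and 11.24 to 11.25 in wt. Pparg, another listed adipocyte marker, changed by -0.12 in G609G/G609G, which was not called. It was called higher there after quantile normalization (0.23) and after centring (0.30). The log2 of the summed adipocyte markers was 14.58 to 14.61 in G609G/G609G, 15.47 to 15.50 in LCS/LCS and 15.29 to 15.30 in wt. Other markers moved with genotype. The log2 of the summed skeletal muscle markers was 15.26 to 15.30 in G609G/G609G, 11.02 to 11.06 in LCS/LCS and 9.73 to 9.88 in wt, with 9 of 9 measured markers higher in G609G/G609G than in wt. For epididymal markers the summed level was 12.40 to 12.47 in G609G/G609G, 15.29 to 15.30 in LCS/LCS and 15.36 to 15.38 in wt. For testis and sperm markers it was 12.01 to 12.04 in G609G/G609G, 9.67 to 9.81 in LCS/LCS and 13.10 to 13.23 in wt. The part of these tissues in the collagen values was not tested. In such bulk tissue, fewer cells of a type and less RNA per cell cannot be told apart.

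In G609G/G609G fat, chains of collagen types I, III, IV, V, VI, XII, XIV, XV and XVIII were lower than in wt fat under all 3 scalings. Of 39 collagen genes, 19 were lower (48.7%) and 1 was higher at a limma adjusted p of 0.05 or less; over all genes 53.5% were lower and 10.5% higher, so the share of lower collagens was near that of all genes. Under all 3 scalings 14 collagen genes were lower (35.9%), against 25.5% of all genes, and 1 was higher, against 10.2%. Quantile normalization alone gave 14 lower and 9 higher (29.5% and 28.5% of all genes), and centring alone 15 lower and 14 higher (27.6% and 43.9% of all genes). The 3 G609G/G609G arrays lay below the 3 wt arrays without overlap for 21 collagen genes (53.8%), against 56.4% of all genes, and above them for 1, against 12.7%. The median change over the 39 was -0.30 on the log2 scale, beside -0.28 over all genes.

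In LCS/LCS fat, chains of collagen types I, III, IV, V, VI, VIII, XIV, XV and XVIII were higher than in wt fat under all 3 scalings. There 15 of 39 collagen genes were higher (38.5%) and 0 were lower by limma on the deposited values, and both other scalings gave the same 2 counts; over all genes 12.8% were higher and 9.77% lower. Under all 3 scalings the 15 collagen genes stood beside 12% of all genes higher and the 0 lower beside 8.71%. The same counts stood beside 15.4% higher and 12.2% lower of all genes after quantile normalization, and 20.4% and 9.21% after centring. The 3 LCS/LCS arrays lay above the 3 wt arrays without overlap for 18 collagen genes (46.2%), against 25.6% of all genes, and below them for 0, against 18.1%. The median change was 0.09 over the 39 and 0.03 over all genes. At an unadjusted p under 0.05 limma gave 16 higher and 0 lower. Shares of all genes at that unadjusted p were not counted, so these counts cannot be set beside them. The methods' t-test also gave 0 lower, but its fold minimum of 1.5 fixed that count, since no change among the 39 lay below -0.08.

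Set directly against LCS/LCS, G609G/G609G had 21 collagen genes lower (53.8%) and 1 higher, where 51.1% of all genes were lower and 11.3% higher. Under all 3 scalings 16 were lower (41.0%), against 26.2% of all genes, and 1 was higher, against 10.9%. Quantile normalization alone gave 17 lower and 5 higher (29.5% and 27.8% of all genes), and centring alone 16 lower and 12 higher (30.6% and 41.5% of all genes). Arrays did not overlap for 23 lower collagen genes (59.0%) and 1 higher, against 55.1% and 14.5% of all genes. The F test over the 3 genotypes called 21 of 39 (53.8%), against 66.8% of all genes. Both comparisons against wt use the same wt arrays, so each gene's changes are given side by side, and this direct contrast tests their difference.

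**Figure D1:**
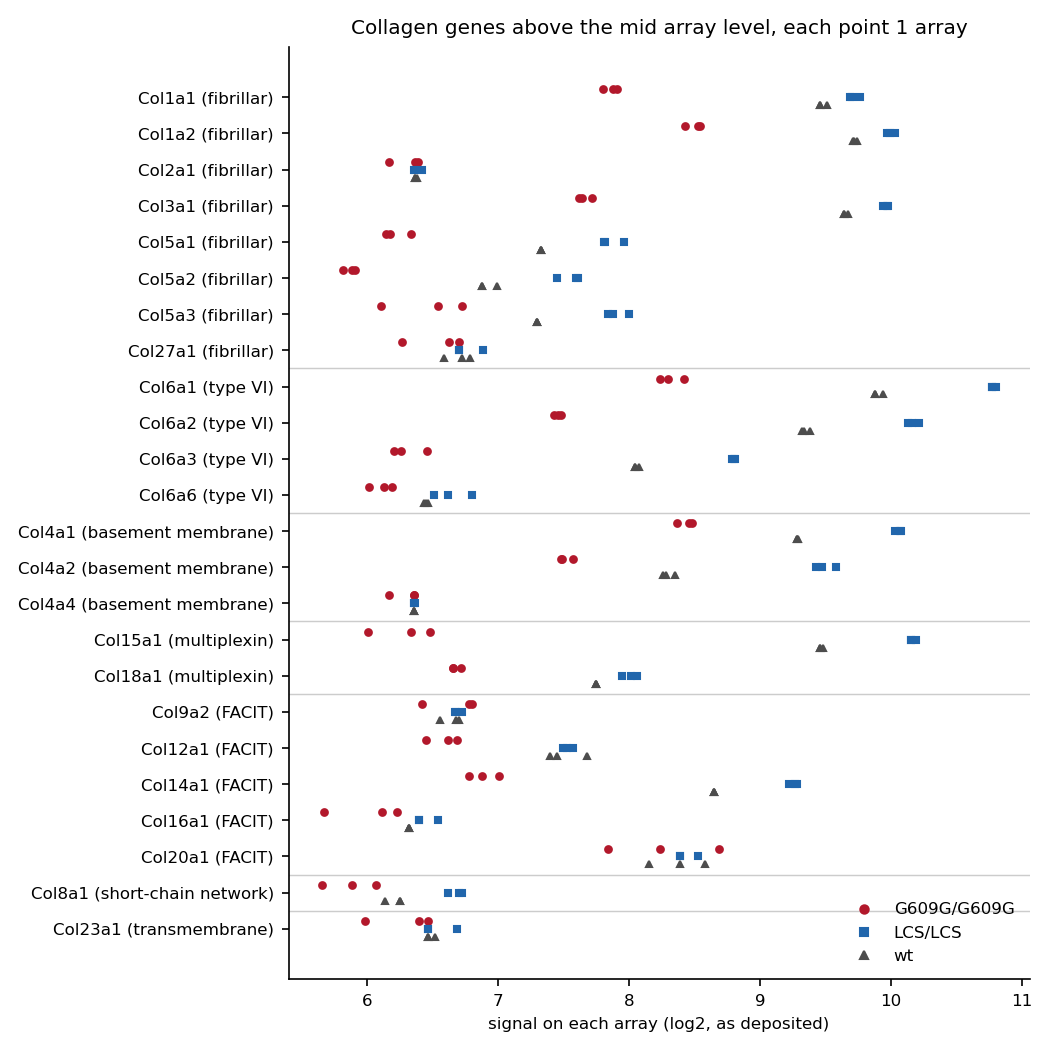
Signal of the 24 collagen genes whose mean over 9 arrays lay above the mean of the array medians, 6.23 on the log2 scale. The x axis is the deposited log2 signal, each point is 1 array (circles G609G/G609G, squares LCS/LCS, triangles wt), and grey lines part the collagen classes. Types I, III, V, VI and XV show 3 separate groups of points with G609G/G609G lowest and LCS/LCS highest.

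Among fibrillar collagens, 6 of 11 fell in G609G/G609G, 5 of them under all 3 scalings, and 6 of 11 rose in LCS/LCS under all 3. Over all genes 53.5% were lower in G609G/G609G as deposited and 25.5% under all 3 scalings, and 12% were higher in LCS/LCS under all 3; each class below is read against the same shares. Type I is the main protein of fibrils in skin, tendon and bone. Col1a1, its alpha 1 chain, read 7.80, 7.91 and 7.88 on the G609G/G609G arrays, 9.76, 9.69 and 9.70 on the LCS/LCS arrays and 9.46, 9.46 and 9.51 on the wt arrays. Its G609G/G609G arrays lay far below the rest, and the LCS/LCS arrays lay just above wt. The change was -1.61 ± 0.05 (log2, SE; 3.06-fold, limma adjusted p 1.21e-07) in G609G/G609G and 0.24 ± 0.05 (1.18-fold, adjusted p 0.0152) in LCS/LCS. The LCS/LCS call for Col1a1 was lost without LCS/LCS replicate 1 (adjusted p 0.0685), LCS/LCS replicate 3 (0.0527), wt replicate 1 (0.0601) or wt replicate 2 (0.0597).

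Col1a2, the alpha 2 chain of the same trimer, read 8.43, 8.53 and 8.54 in G609G/G609G, 10.03, 9.97 and 9.99 in LCS/LCS and 9.71, 9.72 and 9.74 in wt. Again no arrays of different genotypes overlapped. It fell by 1.22 ± 0.05 in G609G/G609G (limma adjusted p 4.49e-07; -0.80 after centring) and rose by 0.27 ± 0.05 in LCS/LCS (adjusted p 0.00746). Col3a1 encodes type III, which forms thin reticular fibres with type I. It read 7.64, 7.72 and 7.62 in G609G/G609G, 9.97, 9.98 and 9.94 in LCS/LCS and 9.64, 9.64 and 9.67 in wt. Col3a1 thus had the widest gap of the fibrillar chains. The change was -1.99 ± 0.05 (3.97-fold, limma adjusted p 2.99e-08) in G609G/G609G and 0.31 ± 0.05 (1.24-fold, adjusted p 0.00311) in LCS/LCS, and the direct difference was -2.30.

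Type V collagen is built into type I fibrils and limits their diameter. Col5a1 read 6.18, 6.34 and 6.15 in G609G/G609G, 7.96, 7.82 and 7.81 in LCS/LCS and 7.33 on all 3 wt arrays. Col5a2 read 5.89, 5.91 and 5.82 in G609G/G609G, 7.61, 7.60 and 7.45 in LCS/LCS and 6.88, 6.88 and 6.99 in wt. Both chains separated the genotypes without overlap. Col5a1 fell by 1.11 ± 0.07 in G609G/G609G (limma adjusted p 3.82e-06; -0.62 after quantile normalization) and rose by 0.53 ± 0.07 in LCS/LCS (adjusted p 0.00117). Col5a2 fell by 1.04 ± 0.06 in G609G/G609G (adjusted p 3.81e-06; -0.62 under both other scalings) and rose by 0.64 ± 0.06 in LCS/LCS (adjusted p 0.000338). For Col5a1 and Col5a2 the size of the fall moved with the scaling while the call held.

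Col5a3, another type V chain, read 6.54, 6.73 and 6.11 in G609G/G609G, 8.0, 7.84 and 7.88 in LCS/LCS and 7.30 on all 3 wt arrays. Its G609G/G609G arrays were the most scattered of the type V chains. The change was -0.84 ± 0.14 in G609G/G609G (limma adjusted p 0.00114), but -0.33 after quantile normalization (adjusted p 0.149). In LCS/LCS it rose by 0.61 ± 0.14 (adjusted p 0.0204), a call lost without LCS/LCS replicate 1 (0.0786), LCS/LCS replicate 3 (0.0605) or any wt array (0.0629, 0.0639 and 0.0568). The SE pools the spread of all 3 genotypes, and the SD of Col5a3 was 0.32 in G609G/G609G, 0.08 in LCS/LCS and 0.0 in wt. The other fibrillar chains above the mid level (the mean of the 9 array medians, 6.23), Col2a1 of cartilage and Col27a1, a minor fibrillar chain also known from cartilage, were called in neither comparison against wt as deposited. Col2a1 was called higher in G609G/G609G after quantile normalization (0.41, limma adjusted p 0.00566) and after centring (0.36, adjusted p 0.0058). It lay between 6.17 and 6.39 in G609G/G609G, between 6.36 and 6.42 in LCS/LCS and between 6.37 and 6.38 in wt. Col27a1 lay between 6.27 and 6.70 in G609G/G609G, between 6.70 and 6.89 in LCS/LCS and between 6.59 and 6.79 in wt.

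Markers of progenitors and fibroblasts moved the same way as the fibrillar collagens. Of 8 measured markers of 10 listed, 8 fell in G609G/G609G, 7 under all 3 scalings, with a median change of -0.85, and 6 rose in LCS/LCS with a median of 0.49, beside 53.5%, 25.5% and 12.8% of all genes. The log2 of their summed level was 11.32 to 11.49 in G609G/G609G, 12.72 to 12.81 in LCS/LCS and 12.20 to 12.25 in wt. Their part in the collagen changes was not tested.

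Type VI collagen is secreted by adipocytes and stromal cells and anchors the basement membrane to the surrounding matrix. All 4 measured chains fell in G609G/G609G on the deposited values, 3 of them under all 3 scalings, and 3 of 4 rose in LCS/LCS. Col6a1 read 8.24, 8.30 and 8.42 in G609G/G609G, 10.80, 10.77 and 10.77 in LCS/LCS and 9.88, 9.88 and 9.94 in wt. Col6a2 read 7.46, 7.48 and 7.43 in G609G/G609G, 10.21, 10.13 and 10.16 in LCS/LCS and 9.34, 9.32 and 9.38 in wt. Both lie next to each other on chromosome 10 and encode the short chains of the trimer. Col6a3, the long chain whose carboxy-terminal fragment is released as endotrophin, read 6.46, 6.26 and 6.21 in G609G/G609G, 8.80, 8.81 and 8.79 in LCS/LCS and 8.05, 8.05 and 8.08 in wt. In all 3 genes the genotypes were apart by far more than the spread within a genotype.

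Col6a1 changed by -1.58 ± 0.06 in G609G/G609G (2.99-fold, limma adjusted p 2.46e-07) and by 0.88 ± 0.06 in LCS/LCS (1.84-fold, adjusted p 3.3e-05). Col6a2 changed by -1.89 ± 0.05 in G609G/G609G (3.71-fold, adjusted p 3.79e-08) and by 0.82 ± 0.05 in LCS/LCS (1.77-fold, adjusted p 1.56e-05). Col6a3 changed by -1.75 ± 0.07 in G609G/G609G (3.36-fold, adjusted p 3.41e-07) and by 0.74 ± 0.07 in LCS/LCS (1.67-fold, adjusted p 0.000216). Directly between the mutants the log2 differences were -2.46, -2.71 and -2.49 for these 3 genes. Col6a6, an alternative long chain, read 6.13, 6.19 and 6.02 in G609G/G609G, 6.80, 6.51 and 6.62 in LCS/LCS and 6.45, 6.44 and 6.47 in wt. Its change of -0.34 ± 0.08 in G609G/G609G (adjusted p 0.00786) turned to 0.11 after quantile normalization and 0.09 after centring, and its change of 0.19 in LCS/LCS was not called (adjusted p 0.174).

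Type IV chains form the network of the basement membrane, and the pair Col4a1 and Col4a2 makes its common trimer in vessels and around adipocytes. They lie head to head on mouse chromosome 8, on opposite strands with starts 21 bases apart, and so share a start region. That region is shown because the pair's members moved together in G609G/G609G and by unequal amounts in LCS/LCS. RefSeq windows of 300 bases (250 before to 50 after each start, build GRCm38.p6) were matched for 31 of 39 collagen genes, 3 of them with several windows. Capitals mark CCAAT or its other-strand form ATTGG, and GGGCGG or CCGCCC, the letters of a CCAAT box and a GC box. The Col4a1 window is chr8:11312777-11313076 on the minus strand and the Col4a2 window chr8:11312555-11312854 on the plus strand, and they share 78 bases.
Col4a1: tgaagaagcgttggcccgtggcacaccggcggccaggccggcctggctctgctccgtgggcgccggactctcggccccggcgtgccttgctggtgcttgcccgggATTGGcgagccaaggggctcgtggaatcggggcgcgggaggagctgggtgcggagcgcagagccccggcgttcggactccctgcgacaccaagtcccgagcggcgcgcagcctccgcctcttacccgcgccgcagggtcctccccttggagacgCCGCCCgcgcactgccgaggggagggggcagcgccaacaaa
Col4a2: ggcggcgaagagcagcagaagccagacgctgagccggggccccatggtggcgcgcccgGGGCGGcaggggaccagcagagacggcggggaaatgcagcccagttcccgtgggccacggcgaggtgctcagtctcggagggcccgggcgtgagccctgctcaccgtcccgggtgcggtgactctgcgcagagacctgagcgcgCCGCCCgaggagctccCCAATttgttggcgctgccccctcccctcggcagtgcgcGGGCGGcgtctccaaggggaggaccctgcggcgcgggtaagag

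Counted with the start as 0, Col4a1 has 1 ATTGG at -145 to -141 and 1 CCGCCC at 9 to 14. Col4a2 has 1 CCAAT at -32 to -28, GGGCGG at -192 to -187 and at 7 to 12, and CCGCCC at -48 to -43. The CCGCCC at 9 to 14 of Col4a1 and the GGGCGG at 7 to 12 of Col4a2 are the same bases read on opposite strands. The GC content was 74.0% for Col4a1 and 73.7% for Col4a2, above the median of 52.7% over all windows. On either strand, CCAAT occurred in 37.4% of all 32851 windows and in 12 of the 34 windows of collagen genes. GGGCGG occurred in 35.7% of all windows and in 21 of those 34, and TATAAA in 13.6% of all windows and in 5 of those 34. Counted by gene, with any window enough, 12, 20 and 5 of 31 collagen genes had a match.

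Col4a1 read 8.37, 8.48 and 8.46 in G609G/G609G, 10.08, 10.03 and 10.07 in LCS/LCS and 9.28, 9.28 and 9.29 in wt. Col4a2 read 7.49, 7.57 and 7.48 in G609G/G609G, 9.58, 9.47 and 9.43 in LCS/LCS and 8.26, 8.28 and 8.35 in wt. For these chains the LCS/LCS arrays stood about as far above wt as the G609G/G609G arrays stood below it, or farther. Col4a1 changed by -0.85 ± 0.05 in G609G/G609G (1.80-fold, limma adjusted p 2.89e-06; -0.42 under both other scalings) and by 0.78 ± 0.05 in LCS/LCS (1.71-fold, adjusted p 2.62e-05). Col4a2 changed by -0.78 ± 0.06 in G609G/G609G (1.72-fold, adjusted p 1.22e-05; -0.28 after quantile normalization and -0.36 after centring) and by 1.2 ± 0.06 in LCS/LCS (2.29-fold, adjusted p 6.04e-06). The rise of Col4a2 was the largest of all 39 collagen genes in LCS/LCS on the deposited values and after both other scalings.

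The other type IV chains, best known from kidney, eye and lung, gave little. Col4a4 read 6.36, 6.36 and 6.17 in G609G/G609G, 6.37, 6.36 and 6.36 in LCS/LCS and 6.36 on all 3 wt arrays, and was called in no contrast as deposited. It was called higher in G609G/G609G than in wt after quantile normalization (0.41, limma adjusted p 0.00368) and after centring (0.36, adjusted p 0.00362). Col4a5 was below the mid level; its change of -0.35 in G609G/G609G (limma adjusted p 0.00483) turned to 0.07 after centring. Endothelial markers, which mark another source of type IV collagen, rose for 6 of 8 in LCS/LCS under all 3 scalings, beside 12% of all genes, with a median of 0.32. In G609G/G609G 3 were higher and 3 lower as deposited, with a median of 0.03, 6 higher and 0 lower after quantile normalization (median 0.49) and after centring (0.46), and 3 higher and 0 lower under all 3 scalings. Of all genes, 10.5% were higher and 53.5% lower in G609G/G609G as deposited, and 10.2% and 25.5% under all 3 scalings. After quantile normalization these shares were 28.5% and 29.5%, and after centring 43.9% and 27.6%. The summed log2 level of the endothelial markers was 12.52 to 12.59 in G609G/G609G, 12.70 to 12.79 in LCS/LCS and 12.40 to 12.54 in wt. The part of these markers in the type IV values was not tested.

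The multiplexins, types XV and XVIII, are collagens that carry heparan or chondroitin sulphate chains and sit at basement membranes; a fragment of type XVIII is endostatin. Both fell in G609G/G609G and rose in LCS/LCS under all 3 scalings. Col15a1 read 6.48, 6.34 and 6.01 in G609G/G609G, 10.19, 10.15 and 10.15 in LCS/LCS and 9.46, 9.46 and 9.48 in wt. It had the widest separation of the 39 genes: its change was -3.19 ± 0.11 in G609G/G609G (9.13-fold, limma adjusted p 1.56e-07; -2.76 after quantile normalization and -2.77 after centring). In LCS/LCS it rose by 0.70 ± 0.11 (1.62-fold, adjusted p 0.00302), and between the mutants it was 14.8-fold lower in G609G/G609G. Col18a1 read 6.72, 6.66 and 6.66 in G609G/G609G, 8.06, 8.02 and 7.95 in LCS/LCS and 7.75 on all 3 wt arrays. It fell by 1.07 ± 0.05 in G609G/G609G (adjusted p 8.39e-07; -0.54 after quantile normalization and -0.65 after centring) and rose by 0.26 ± 0.05 in LCS/LCS (adjusted p 0.00871).

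The start windows of Col15a1 (chr4:47207762-47208061, plus strand) and Col1a2 (chr6:4505368-4505667, plus strand), both of GRCm38.p6, are shown as the gene with the deepest fall and a fibrillar gene with smaller changes. The marking is the same as above.
Col15a1: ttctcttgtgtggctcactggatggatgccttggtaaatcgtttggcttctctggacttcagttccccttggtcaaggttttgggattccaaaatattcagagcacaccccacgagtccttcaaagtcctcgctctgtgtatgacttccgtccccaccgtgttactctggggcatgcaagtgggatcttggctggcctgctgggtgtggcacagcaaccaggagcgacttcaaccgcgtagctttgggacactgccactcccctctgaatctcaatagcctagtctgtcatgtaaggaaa
Col1a2: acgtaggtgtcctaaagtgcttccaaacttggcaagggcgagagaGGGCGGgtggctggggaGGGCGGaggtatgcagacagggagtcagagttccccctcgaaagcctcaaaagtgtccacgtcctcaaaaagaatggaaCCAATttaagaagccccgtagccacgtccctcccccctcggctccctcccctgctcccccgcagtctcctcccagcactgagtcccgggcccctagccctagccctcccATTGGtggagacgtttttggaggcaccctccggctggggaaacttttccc

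The Col15a1 window, with a GC content of 52.3%, holds none of the motifs searched, so it has no capitals. The Col1a2 window, at 61.0%, holds CCAAT at -109 to -105, ATTGG at 0 to 4, and GGGCGG at -205 to -200 and -188 to -183. These matches describe letters in a window only.

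FACIT collagens coat the surface of fibrils. Of 7, Col14a1 and Col12a1 fell in G609G/G609G under all 3 scalings, and 1, Col14a1, rose in LCS/LCS. Col14a1 read 6.78, 6.88 and 7.01 in G609G/G609G, 9.28, 9.22 and 9.27 in LCS/LCS and 8.65 on all 3 wt arrays. It fell by 1.76 ± 0.06 in G609G/G609G (3.39-fold, limma adjusted p 2.37e-07) and rose by 0.61 ± 0.06 in LCS/LCS (1.52-fold, adjusted p 0.000437). Col12a1, found in fibrils under load such as tendon, read 6.45, 6.62 and 6.69 in G609G/G609G, 7.57, 7.50 and 7.53 in LCS/LCS and 7.45, 7.40 and 7.68 in wt. Here the LCS/LCS arrays overlapped wt while the G609G/G609G arrays did not. Its change was -0.92 ± 0.09 in G609G/G609G (adjusted p 5.18e-05; -0.40 after quantile normalization and -0.50 after centring) and 0.02 ± 0.09 in LCS/LCS (adjusted p 0.915).

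Col16a1, another FACIT chain, read 6.12, 6.23 and 5.67 in G609G/G609G, 6.40, 6.54 and 6.40 in LCS/LCS and 6.32 on all 3 wt arrays. Its change of -0.31 in G609G/G609G missed the threshold (limma adjusted p 0.0796) and passed it without G609G/G609G replicate 2 (-0.42, adjusted p 0.0279), but it turned to 0.12 after quantile normalization (adjusted p 0.576) and 0.11 after centring (adjusted p 0.541). Col9a2, a chain of the cartilage FACIT type IX, lay between 6.42 and 6.80 in G609G/G609G, between 6.67 and 6.73 in LCS/LCS and between 6.56 and 6.70 in wt. Col20a1 lay between 7.84 and 8.69 in G609G/G609G, between 8.39 and 8.53 in LCS/LCS and between 8.15 and 8.58 in wt. Genotypes overlapped for both, and neither was called as deposited. Col9a2 was called higher in G609G/G609G than in wt after quantile normalization (0.53, limma adjusted p 0.0147) and after centring (0.45, adjusted p 0.0144).

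In the short-chain network class, Col8a1, made by vessel wall cells, read 5.89, 6.07 and 5.66 in G609G/G609G, 6.70, 6.62 and 6.73 in LCS/LCS and 6.25, 6.25 and 6.14 in wt. It rose by 0.47 ± 0.10 in LCS/LCS (limma adjusted p 0.0141), a call lost without LCS/LCS replicate 1 (0.0537) or LCS/LCS replicate 3 (0.0574). Its change of -0.34 in G609G/G609G (adjusted p 0.0206) turned to 0.07 after quantile normalization and 0.09 after centring, and its call was lost without wt replicate 1 (0.0609) or wt replicate 2 (0.0617). Col10a1, the collagen of hypertrophic cartilage, was the only collagen gene called higher in G609G/G609G on the deposited values. It read 4.43, 4.30 and 5.05 in G609G/G609G, 4.08, 3.88 and 3.88 in LCS/LCS and 4.06, 3.85 and 4.17 in wt, all far below the array medians. Its change of 0.57 ± 0.19 (adjusted p 0.0334; 0.99 after centring) lost its call without wt replicate 1 (0.0675) or wt replicate 2 (0.105).

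Of the 4 transmembrane chains, Col17a1, a hemidesmosome component of epithelia, changed by -0.30 in G609G/G609G (limma adjusted p 0.00231), which turned to 0.02 after quantile normalization and 0.12 after centring. Col23a1, another membrane-spanning chain, lay between 5.99 and 6.47 in G609G/G609G, between 6.47 and 6.69 in LCS/LCS and between 6.47 and 6.52 in wt, and was not called. Col7a1, the anchoring fibril collagen of skin, and Col26a1 were called in no contrast as deposited.

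**Figure D2:**
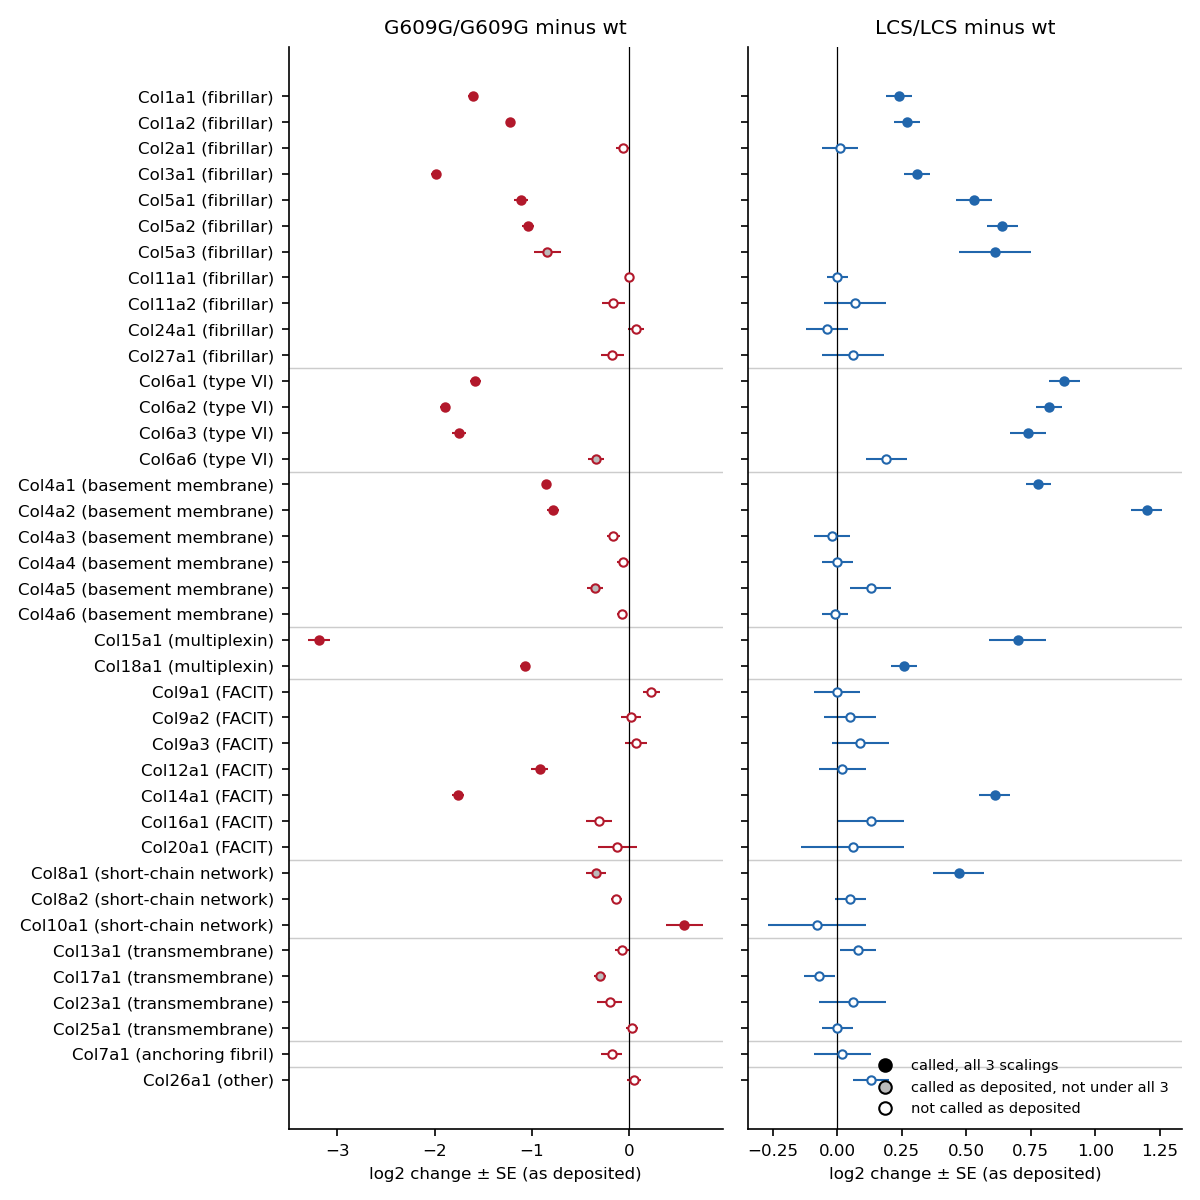
Change of each of the 39 collagen genes, grouped by class, in G609G/G609G minus wt and LCS/LCS minus wt. The x axis is the log2 change as deposited, with the limma SE as the bar; fill marks whether the call held under all 3 scalings. Points filled in the genotype colour (black in the legend) held under all 3 scalings. They lie left of 0 for 14 genes in G609G/G609G and right of 0 for 15 genes in LCS/LCS. Col10a1 is the lone such point right of 0 in G609G/G609G.

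Calls went with level. Of the 24 members above the mid level, 17 were lower and 0 higher in G609G/G609G on the deposited values, beside 53.5% and 10.5% of all genes. Under all 3 scalings 14 were lower, beside 25.5%, and in LCS/LCS 15 were higher as deposited, beside 12.8%. These shares cover genes of every level, and shares of all genes above the mid level were not counted. Among these 24 members, the calls higher in G609G/G609G were 3 after quantile normalization and 3 after centring: Col2a1, Col4a4 and Col9a2. Of the 15 members at or below it, 2 were lower and 1 higher in G609G/G609G and 0 were called in LCS/LCS by limma. An unadjusted limma p under 0.05, not counted over all genes, also gave 0 in LCS/LCS for these 15 members. Their changes lay between -0.35 and 0.57 in G609G/G609G and between -0.08 and 0.13 in LCS/LCS. For these dim members the direction of the calls varied with the scaling. In G609G/G609G 6 were higher and 0 lower after quantile normalization, beside 28.5% and 29.5% of all genes. After centring 11 were higher and 0 lower, beside 43.9% and 27.6% of all genes. Without detection calls, dim signals cannot be told from background. The level includes the arrays being compared, so its relation to the change is given as a description.

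**Figure D3:**
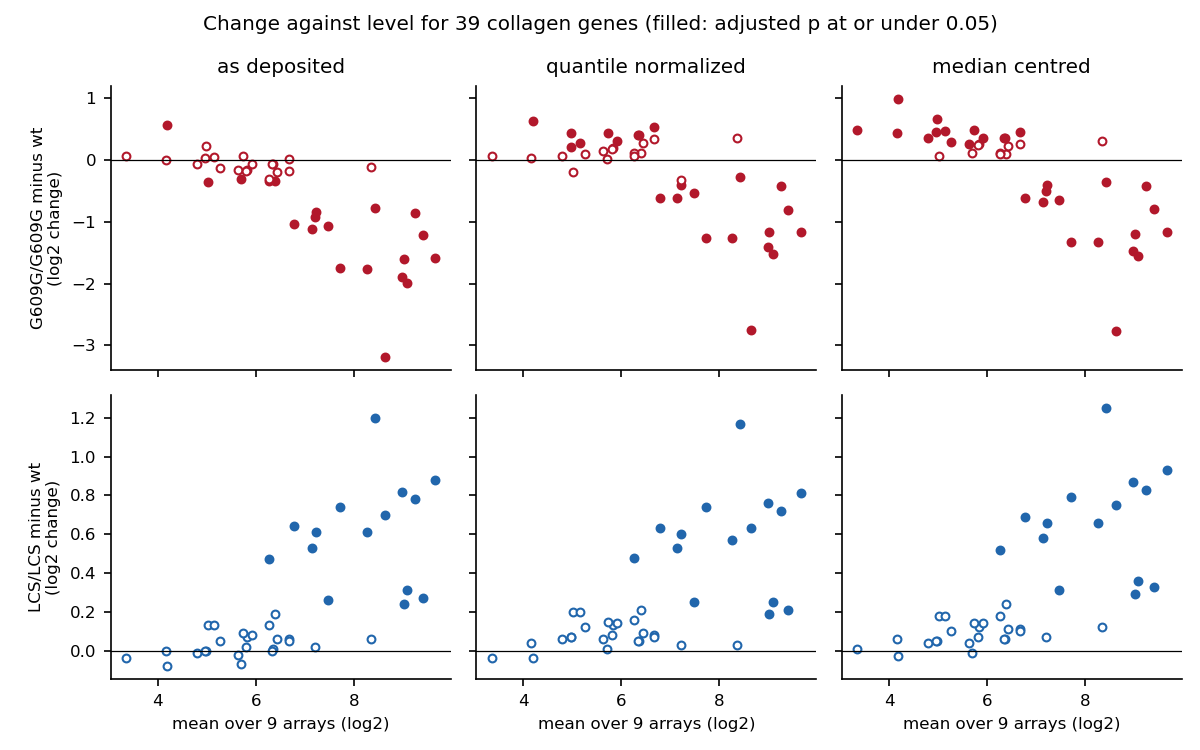
Log2 change against wt (y axis) by mean log2 signal over the 9 arrays (x axis) for 39 collagen genes, G609G/G609G in the top row and LCS/LCS in the bottom row, under 3 scalings from left to right. Filled points passed the limma threshold; the y axes of the rows differ. Dim collagens sit near 0 or move above it with the scaling, and the lowest point in each top panel is Col15a1 at -3.19, -2.76 and -2.77.

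Because a shift of a whole array drops out of a difference between genes on the same array, 12 pairs of collagen genes were also compared within arrays. These are differences between probe sets and do not rank the transcripts by abundance; the values that follow are changes of that difference against wt. With 3 arrays a group, the smallest p that the exact two-sided permutation test allows is 0.1, so no pair can pass 0.05. Col15a1 minus Col18a1 changed by -2.12 in G609G/G609G and by 0.44 in LCS/LCS, with no overlap with wt in either (exact p 0.1). Col1a1 minus Col4a1 changed by -0.77 in G609G/G609G and by -0.54 in LCS/LCS, again without overlap (exact p 0.1). On every mutant array Col1a1 was lower relative to Col4a1 than on any wt array.

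Col1a1 minus Col6a1 was -0.44, -0.39 and -0.54 in G609G/G609G, -1.04, -1.08 and -1.07 in LCS/LCS and -0.42, -0.42 and -0.43 in wt. The G609G/G609G arrays overlapped wt (exact permutation p 0.7) and the LCS/LCS arrays did not (exact permutation p 0.1). Col4a1 minus Col6a1 changed by 0.73 in G609G/G609G and by -0.10 in LCS/LCS, each without overlap. Within type IV, Col4a1 minus Col4a2 was 0.88, 0.91 and 0.98 in G609G/G609G, 0.50, 0.56 and 0.64 in LCS/LCS and 1.02, 1.0 and 0.94 in wt. In LCS/LCS this was a change of -0.42 without overlap (exact permutation p 0.1), and in G609G/G609G one of -0.06 with overlap (exact permutation p 0.2).

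The other pairs set chains of a type, or of types I and III, against each other. Col1a1 minus Col1a2 changed by -0.39 in G609G/G609G and -0.03 in LCS/LCS, and Col6a1 minus Col6a2 by 0.31 in G609G/G609G and 0.06 in LCS/LCS. Col6a3 minus Col6a1 changed by -0.17 in G609G/G609G and -0.14 in LCS/LCS. Col5a1 minus Col5a2 changed by -0.06 in G609G/G609G and -0.10 in LCS/LCS, with overlap with wt in both mutants. Col3a1 minus Col1a1 changed by -0.38 in G609G/G609G and 0.07 in LCS/LCS. The remaining pairs were Col8a1 minus Col8a2, at -0.21 in G609G/G609G and 0.42 in LCS/LCS, and Col4a3 minus Col4a4, at -0.10 in G609G/G609G and -0.02 in LCS/LCS.

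**Figure D4:**
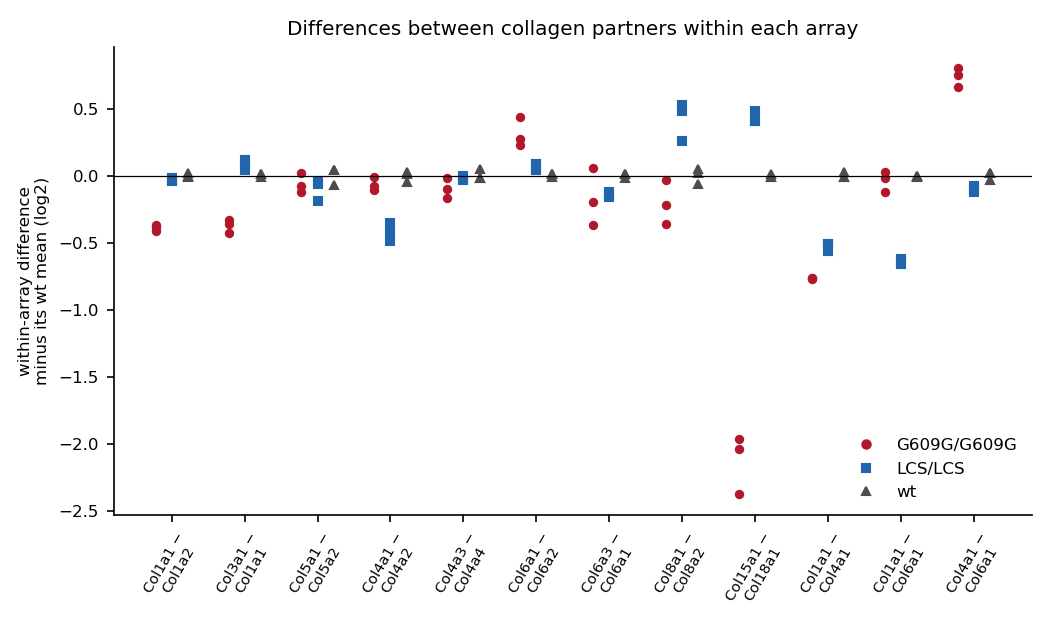
Difference between the log2 signals of 2 collagen genes on the same array, minus the wt mean of that difference, for 12 pairs. The y axis is in log2 units and each point is 1 array (G609G/G609G, LCS/LCS, wt). Col15a1 minus Col18a1 lies lowest in G609G/G609G, with a mean change of -2.12, while the LCS/LCS arrays are lowest for Col1a1 minus Col6a1, with a mean change of -0.64.

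Genes that make, bind and break down collagen were counted from 6 lists of textbook function, with changes on the log2 scale as deposited. After centring, the G609G/G609G medians were -0.49 for folding and modification, -0.38 for cleavage and crosslinking, -0.84 for fibril binding, -0.30 for receptors, -0.68 for basement membrane partners and 0.48 for degradation. Of the genes for folding and modification, 17 of 20 listed were measured; 13 fell and 0 rose in G609G/G609G, 9 of them under all 3 scalings, and 9 rose and 1 fell in LCS/LCS, also under all 3. The shares of all genes that stand beside these and the next 5 lists are 53.5% lower and 10.5% higher in G609G/G609G as deposited, 25.5% lower and 10.2% higher under all 3 scalings, and in LCS/LCS 12.8% higher and 9.77% lower as deposited. The medians were -0.91 in G609G/G609G and 0.23 in LCS/LCS, beside -0.28 in G609G/G609G and 0.03 in LCS/LCS over all genes. Plod3, a lysyl hydroxylase that also glycosylates collagen, changed by -1.61 in G609G/G609G and 0.58 in LCS/LCS, and Plod1, another lysyl hydroxylase, by -1.13 in G609G/G609G and 0.61 in LCS/LCS. Creb3l1, a transcription factor of the secretory pathway known to act on type I collagen genes, changed by -1.46 in G609G/G609G and 0.96 in LCS/LCS. P3h4, a partner of prolyl and lysyl hydroxylases, was lower in both, by -1.18 in G609G/G609G and -0.36 in LCS/LCS. P4hb, the beta subunit of prolyl 4-hydroxylase, fell by 0.91 in G609G/G609G and changed by -0.04 in LCS/LCS, which was not called. P4ha1, a catalytic subunit of the same enzyme, changed by -0.47 in G609G/G609G on the deposited values but 0.04 after quantile normalization (limma adjusted p 0.591), and rose by 0.33 in LCS/LCS.

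Of the procollagen cleavage and crosslinking genes, 8 of 13 listed were measured; 7 fell in G609G/G609G, 4 under all 3 scalings, and 6 rose in LCS/LCS, with medians of -0.80 in G609G/G609G and 0.48 in LCS/LCS. Bmp1, the proteinase that trims procollagen carboxy ends, changed by -1.2 in G609G/G609G and 0.84 in LCS/LCS, Pcolce2, an enhancer of it, by -1.34 in G609G/G609G and 0.64 in LCS/LCS, and Loxl2, a lysyl oxidase that cross-links collagen, by -1.70 in G609G/G609G and 0.31 in LCS/LCS. Fibril-binding genes gave 10 of 11 lower in G609G/G609G, 9 under all 3 scalings, and 8 higher in LCS/LCS, 7 under all 3, with medians of -1.27 in G609G/G609G and 0.36 in LCS/LCS. Among them Prelp, a leucine-rich proteoglycan, changed by -2.38 in G609G/G609G and 0.43 in LCS/LCS, Fn1, fibronectin, by -1.50 in G609G/G609G and 0.50 in LCS/LCS, and Dpt, dermatopontin, by -1.66 in G609G/G609G and 0.34 in LCS/LCS. Bgn, the proteoglycan biglycan, changed by -0.61 in G609G/G609G, -0.27 after quantile normalization and -0.19 after centring, and by 0.36 in LCS/LCS.

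Of 8 measured collagen receptors of 11 listed, 6 fell in G609G/G609G, 5 under all 3 scalings, and 3 rose in LCS/LCS, beside 53.5%, 25.5% and 12.8% of all genes, with medians of -0.72 in G609G/G609G and 0.19 in LCS/LCS. Mrc2, an endocytic receptor that takes up collagen, changed by -1.18 in G609G/G609G and 1.11 in LCS/LCS. Itga11, an integrin chain for fibrillar collagen, changed by -1.11 in G609G/G609G and 0.39 in LCS/LCS, and Ddr2, a receptor tyrosine kinase for fibrillar collagen, by -1.0 in G609G/G609G and 0.29 in LCS/LCS. Of the basement membrane partners, 7 of 7 measured fell in G609G/G609G, 5 under all 3 scalings, and 5 rose in LCS/LCS, with medians of -1.11 in G609G/G609G and 0.35 in LCS/LCS. Lama4, a laminin chain of adipocyte and vessel basement membrane, changed by -2.16 in G609G/G609G and 0.29 in LCS/LCS, Nid1, nidogen 1, by -1.58 in G609G/G609G and 0.53 in LCS/LCS, and Nid2, nidogen 2, by -1.18 in G609G/G609G and 0.53 in LCS/LCS.

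Collagen degradation genes moved in both directions. Of 7 genes, 3 fell and 1 rose in G609G/G609G, 1 in each direction under all 3 scalings; after quantile normalization 3 were higher and 1 lower, and after centring 5 higher and 1 lower. In LCS/LCS 1 rose and 1 fell, and the medians were 0.06 in G609G/G609G and 0.01 in LCS/LCS. Mmp3, Mmp8 and Mmp13 lay below the array median on all 9 arrays. They made up 3 of the 5 genes called higher in G609G/G609G after centring (0.51, 0.78 and 0.48), and Mmp13 was the list median there. Mmp9, a gelatinase, fell by 1.43 in G609G/G609G and changed by -0.11 in LCS/LCS, which was not called. Mmp8, a collagenase of neutrophils, rose by 0.36 in G609G/G609G. It read 3.75 to 3.95 in G609G/G609G, 3.47 to 3.56 in LCS/LCS and 3.48 to 3.51 in wt, all far below the array medians. Ctsk, a lysosomal collagenase, rose by 0.70 in LCS/LCS, and its change of -0.53 in G609G/G609G was -0.01 after quantile normalization. Mmp2, another gelatinase, fell by 0.38 in LCS/LCS, and its change of -0.26 in G609G/G609G turned to 0.14 after quantile normalization and 0.17 after centring.

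**Figure D5:**
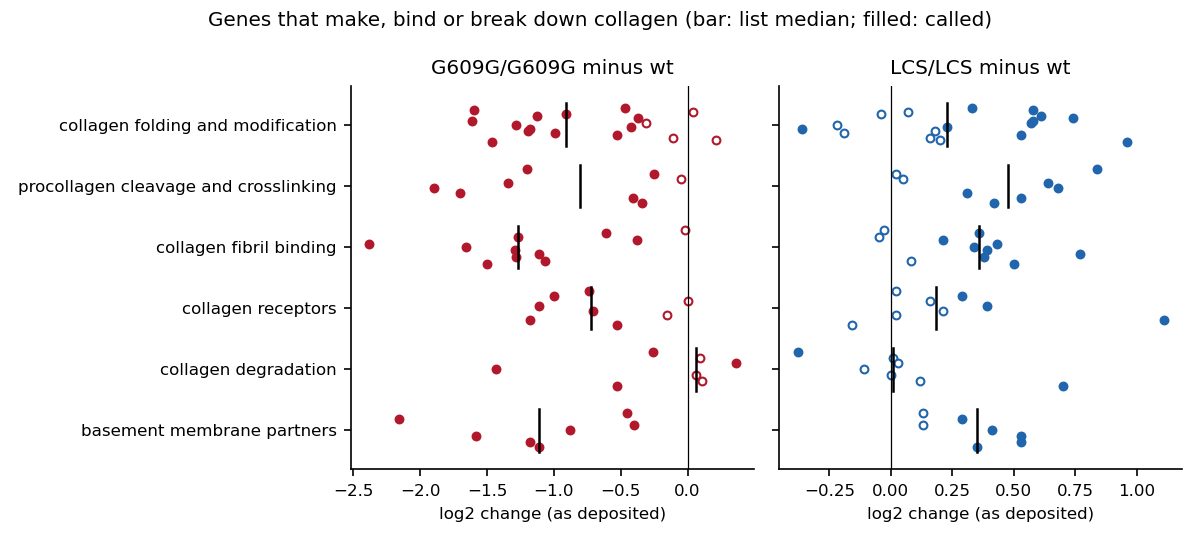
Log2 change as deposited of each measured gene of 6 collagen pathway lists, G609G/G609G minus wt on the left and LCS/LCS minus wt on the right, with the list median as a black bar and filled points for genes past the limma threshold. The x axes of the panels differ. In G609G/G609G 5 medians lie between -0.72 and -1.27 and that of degradation lies at 0.06.

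Collagen values scattered more in G609G/G609G than in the other genotypes. The median SD over the 39 was 0.12 in G609G/G609G, 0.04 in LCS/LCS and 0.03 in wt, beside 0.13, 0.08 and 0.1 over all probe sets. The largest SD of a collagen gene was 0.43 in G609G/G609G, 0.15 in LCS/LCS and 0.22 in wt. Among the G609G/G609G arrays, replicate 3 was the lowest for 28 of 39 collagen genes, though its array median of 6.01 was the highest of that genotype. In wt, 7 of 39 collagen genes had the same deposited value on all 3 arrays, against 1.71% of all probe sets, and in G609G/G609G and LCS/LCS 1 each. How equal values arose was not tested.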

How the data were processed

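The deposited table holds log2 signals of 23332 probe sets on 9 one-colour exon arrays. The authors' background correction, summarisation and scaling are not given in the sources used here, and the log2 scale was inferred from the range of the deposited values. The build is mm9 per the submitters' processing notes, and it was not used for coordinates. Groups and replicate numbers came from the sample titles. The series design names 10 samples, of which 9 were analysed here.

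Probe sets were named from the probe annotation: 14996 had 1 symbol, 1019 had several and 7317 were not listed. Where several probe sets named a gene, the brightest over all arrays stood for it, which gave 14860 genes. limma 3.58.1 in R 4.3.3 fitted all 9 arrays with a mean per genotype (6 residual degrees of freedom), empirical Bayes moderation and two-sided tests, with Benjamini-Hochberg adjustment over all probe sets and a threshold of 0.05. "Called" means an adjusted p at or under it. The number of arrays limits the precision. No detection calls were available, so no level was taken as absent. Within-array differences were compared with exact permutation tests. The script was tested on simulated data.

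Values on every array, or their range, are given for collagen genes above the mean of the array medians; of each pathway list, the 2 genes with the smallest p in each direction in each comparison against wt are named, with a few fixed ones. Col8a2, Col4a3, Col4a5, Col10a1, Col17a1, Col7a1 and Col26a1 fall outside that rule; Col4a5, Col10a1 and Col17a1 were named after their values were seen. The members, classes, lists and pairs were chosen with earlier results of these data known. Summed marker levels are the log2 of the sum of linear signals. Alternatives were the scaling, the replicate block, the prior, array weights, a filter on dim probe sets, a minimum fold, the methods' t-test and leaving out each array. Further ones were a fit of only the genotypes compared, the mean of a gene's probe sets, and adjustment over only the probe sets with 1 symbol. Markers of macrophages, mesothelium, smooth muscle, Schwann cells, and cartilage and tendon were also counted. Sequences and their GRCm38.p6 coordinates are from RefSeq.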

Additional observations from a re-analysis of the deposited data

How the results depend on the processing

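The count of collagen genes higher in G609G/G609G than in wt, 1 as deposited, was 9 after quantile normalization, 14 after centring, 2 with array weights, and 0 in a fit of those genotypes alone, with a filter on dim probe sets, with a minimum fold of 1.5 and by the methods' t-test before or after adjustment. The count higher in LCS/LCS than in wt, 15, was 9 with a minimum fold of 1.5 and by the methods' t-test before or after adjustment. That count stayed at 15 in a fit of LCS/LCS and wt alone. The count higher in G609G/G609G than in LCS/LCS, 1, was 5 after quantile normalization, 12 after centring, 2 with the replicate block, 3 with array weights and 0 by the methods' t-test. Counts of lower genes stayed within 1.5 times of 19, 0 and 21 under every setting run. Leaving out 1 array gave 0 to 2 higher and 18 to 21 lower genes in G609G/G609G against wt, 12 to 15 higher and 0 to 0 lower in LCS/LCS against wt, and 0 to 2 higher and 19 to 21 lower in G609G/G609G against LCS/LCS. Same-numbered arrays did not all deviate together (correlations of deviations from -0.071 to 0.23), so numbers were not taken as pairs; with the replicate block no call changed for the 27 genes followed. Signs turned after quantile normalization and centring for G609G/G609G minus wt in Col17a1 (0.02 and 0.12), Col2a1 (0.41 and 0.36), Col4a4 (0.41 and 0.36), Col6a6 (0.11 and 0.09) and Col8a1 (0.07 and 0.09), and in Col4a5 after centring (0.07), and, uncalled under each of these scalings, in Col16a1 (0.12 and 0.11), Col20a1 (0.35 and 0.31), Col23a1 (0.27 and 0.23) and Col27a1 (0.34 and 0.26). For G609G/G609G minus LCS/LCS they turned in Col17a1 (0.01 and 0.14), Col2a1 (0.36 and 0.30), Col4a4 (0.36 and 0.31) and Col9a2 (0.46 and 0.35), and, uncalled, in Col20a1 (0.32 and 0.19), Col23a1 (0.18 and 0.12) and Col27a1 (0.25 and 0.14). These lists cover the 27 genes followed; signs of dim members outside them also turned, among them Col8a2 in G609G/G609G minus LCS/LCS (-0.18, called as deposited, and 0.19 after centring). Centring adds 0.425 and 0.373 to these comparisons by construction; otherwise the cause was not tested. Of 1779 gene values under alternatives, 1648 kept their direction and side of the threshold. That total includes settings that could move little. Averaging the probe sets of a gene changes no collagen value, since each collagen gene has 1 probe set. That setting and adjustment over only the probe sets with 1 symbol each kept 81 of 81. Quantile normalization kept 59 of 81 and centring 60 of 81. Signal over background was not available to limit dim genes.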

Other observations

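A probe set that the annotation pairs with both Col19a1 and Tubb4b was left out of the members. It read 4.22, 4.30 and 4.24 in G609G/G609G, 4.22, 4.28 and 4.22 in LCS/LCS and 4.17, 4.22 and 4.22 in wt, and was not called as deposited.

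The genes outside the collagens whose pattern over the 9 centred arrays was most like the mean of the 8 fibrillar collagens above the mid level were Dact2 (Pearson r 0.9994), Amotl2 (0.9986), Ap1s1 (0.9976), Rnf11 (0.9963) and Galnt10 (0.9959). The arrays fall into 3 genotypes, so these values mostly describe the order and spacing of the genotype means.

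Other markers counted beside the collagens were those of macrophages, where 7 of 7 fell in G609G/G609G (median -1.28) and 6 rose in LCS/LCS (0.36), and of mesothelium, where 5 of 6 fell in G609G/G609G (-0.81) and 5 rose in LCS/LCS (0.47). Smooth muscle and pericyte markers gave 3 higher and 2 lower of 7 in G609G/G609G (0.08) and 3 higher and 3 lower in LCS/LCS (-0.13). Cartilage and tendon markers gave 3 of 5 lower in G609G/G609G (-0.26) and 1 higher in LCS/LCS (0.10), and neither of 2 measured Schwann cell markers was called in either as deposited, while 1 was called higher in G609G/G609G after quantile normalization and after centring. Adipocyte markers gave 6 of 7 lower in G609G/G609G, 4 under all 3 scalings (-0.66), and 3 higher in LCS/LCS (0.16). In G609G/G609G 1 adipocyte marker was higher after quantile normalization and after centring. Markers lower in G609G/G609G under all 3 scalings were 7 of macrophages, 5 of mesothelium, 2 of smooth muscle and pericytes and 2 of cartilage and tendon. Of all genes, 53.5% were lower and 10.5% higher in G609G/G609G as deposited, with 25.5% lower under all 3 scalings. In LCS/LCS 12.8% were higher and 9.77% lower as deposited.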
